A study of Caenorhabditis elegans with 32 samples.

Results

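The F2 and F3 generations of hrde-1 mutant Caenorhabditis elegans, hypoxia against normoxia, were represented by 8 of the 32 libraries of the series. They were taken by their labels and form 4 groups of 2 libraries: F2 normoxia, F2 hypoxia, F3 normoxia and F3 hypoxia, all carrying the genotype label hrde-1. The whole series holds 16 such groups, which combine wild type (WT) and hrde-1 worms, 4 generations (P0, F1, F2, F3) and the 2 oxygen labels. Poly(A) RNA of whole worms was read as 150 bp pairs. The labels' protocols describe a single exposure of L4 larvae (the last larval stage) to 0.1% oxygen for 16 h at 20 °C, followed by a return to air of about 20% oxygen. They do not say whether worms of F2 and F3 were exposed themselves or descend from exposed P0 worms, they name no hrde-1 allele, and they give neither the stage at which RNA was taken nor separate cultures behind the 2 libraries of a group. P-values therefore measure the spread between these libraries, which may be technical.

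HRDE-1 is an Argonaute protein that carries small RNAs into germline nuclei, where it silences matching genes and keeps them silenced in later generations. Worms without it lose inherited silencing over generations. Low oxygen acts in worms mainly through HIF-1, a transcription factor that the prolyl hydroxylase EGL-9 marks for degradation when oxygen is present. Comparing late generations of the mutant asks what remains of a hypoxia label in descendants that lack this inheritance factor.

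Library totals ran from 9722580 to 16103275 estimated counts. The transcript of hrde-1 was present in every library at 351 to 460 CPM (counts divided by a library size that TMM factors had adjusted), so its level does not check the genotype. C38D9.2, a reported nuclear RNAi target, does bear on it: it stood at 211 to 343 CPM in the 8 libraries and at 0.735 to 2.02 CPM in the 4 libraries of F3 WT, on a scale common to 30 libraries. Of 17 defining markers of neurons, muscle, intestine, hypodermis, germline, oocytes and sperm, 15 had counts in all 8 libraries. The hypodermal gene dpy-7 was at 0 in F3 hypoxia replicate 1, and unc-47, a marker of GABA neurons, did not pass the filter on low counts. In whole worms, fewer cells of a type and less RNA per cell cannot be told apart.

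The replicates of the normoxia groups stood far apart. The F3 normoxia libraries correlated at r = 0.897 across the log2 CPM of genes tested, below the F2 normoxia pair (0.947), the F3 hypoxia pair (0.971) and the F2 hypoxia pair (0.981). F3 normoxia replicate 1 was closest to F2 hypoxia replicate 1 (r = 0.974), F3 normoxia replicate 2 to F3 hypoxia replicate 2 (0.979), and F2 normoxia replicate 1 to F3 hypoxia replicate 1 (0.98). The first principal component held 59.5% of the variance. It placed the libraries in the order F3 normoxia 1 (-84.5), F2 normoxia 2 (-47.9), F2 hypoxia 1 (-40.4), F2 hypoxia 2 (-20.1), F3 hypoxia 1 (24.3), F2 normoxia 1 (37.5), F3 hypoxia 2 (63.5) and F3 normoxia 2 (67.7), so that each normoxia group had a library on either side and the hypoxia groups stood on opposite sides.

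Gene groups also differed between the F3 normoxia replicates. Differences between the F3 normoxia replicates are medians over genes of log2 CPM (prior count of 2), second minus first. They were 3.98 in 140 collagens, 3.04 in 32 hedgehog-related genes and 1.53 in 44 cuticle and molting genes. In 30 major sperm proteins the difference was 1.27, and in 24 muscle markers 0.825. The difference was -0.885 in 21 heat shock genes, -0.693 in 25 oocyte and eggshell genes and -0.661 in 32 cell cycle genes, against 0.0517 over all genes tested. The cuticle collagen dpy-13 stood at 1.31 and 471 CPM in the 2 F3 normoxia libraries, and at 204, 75.6, 25.8 and 29.5 in F2 normoxia and F2 hypoxia. The inducible chaperone gene hsp-70 ran the other way, at 472 and 41.3 CPM in F3 normoxia, 36 and 377 in F2 normoxia, 533 and 533 in F2 hypoxia, and 30.6 and 44.4 in F3 hypoxia. Summed levels over the sperm lists were lowest in F3 normoxia replicate 1 (535 CPM for major sperm proteins, 781 to 1870 in the other 7 libraries). Summed oocyte and eggshell genes were highest there (22300 CPM, 13000 to 20800 in the others).

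**Figure D1:**
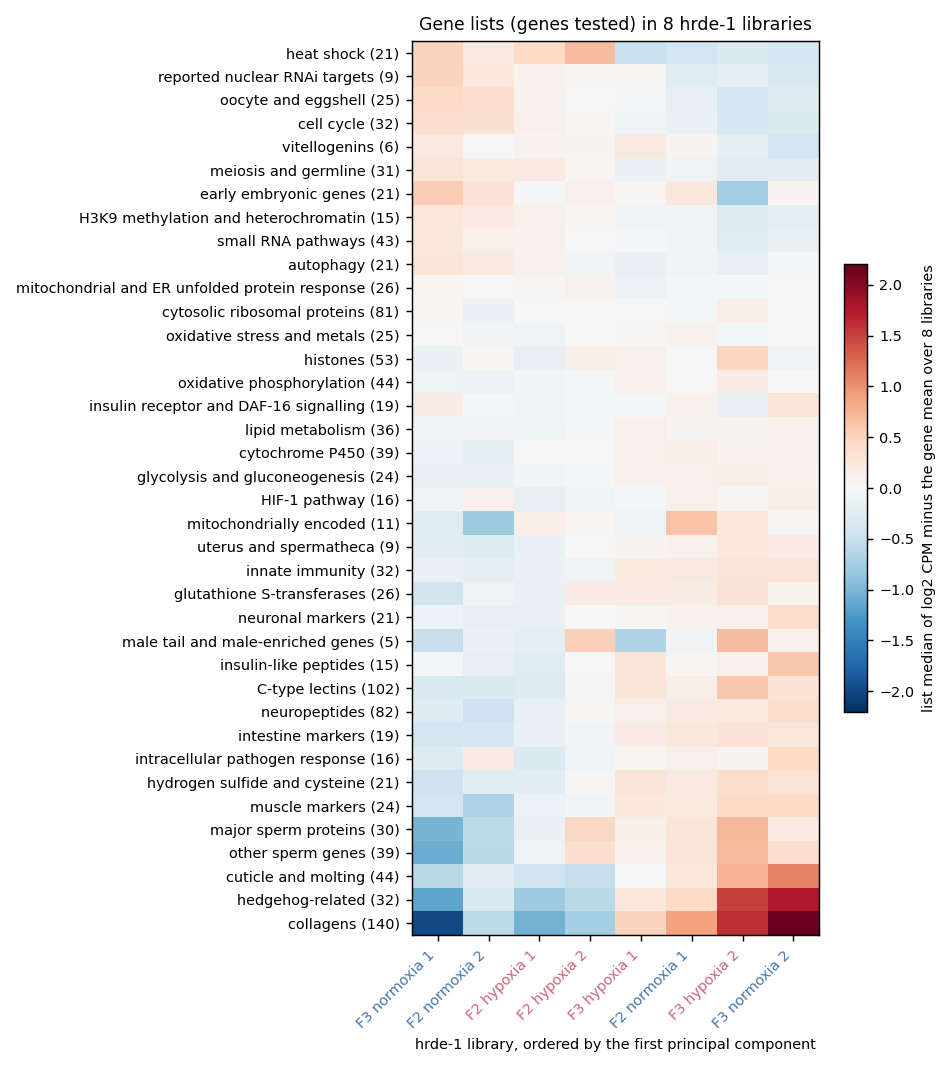
Rows are 38 gene lists with the number of genes tested, columns the 8 hrde-1 libraries ordered by the first principal component (blue names normoxia, red names hypoxia), and colour the list's median of log2 CPM minus each gene's mean over the 8 libraries. Collagens run from -1.98 in F3 normoxia 1 to 2.17 in F3 normoxia 2, with the hypoxia libraries between them.

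Against that spread, no gene passed the test of hypoxia against normoxia over F2 and F3 with generation as a term. Of 13718 genes, 0 had an adjusted p under 0.05 in edgeR's quasi-likelihood test (0% called), the smallest adjusted p being 1. At an unadjusted p under 0.05 the count was 249 (1.82%), of which 0.758% of genes tested were higher in hypoxia and 145 (1.06%) lower. DESeq2's Wald test on the same design called 8 genes: test-1, col-98, col-42, his-62, his-64 and his-65 higher, and his-24 and W02B8.2 lower. The rest is described by a count, with no test, that also depends on the spread between replicates: genes whose hypoxia libraries both lay above, or both below, their normoxia libraries. This held for 3824 genes in F2 (27.9%) and 3278 in F3 (23.9%). In both generations in the same direction it held for 440 genes (3.21%), 188 higher (1.37%) and 252 lower (1.84%), and in opposite directions for 508 (3.7%). With library totals in place of TMM factors the same-direction counts were 66 higher and 863 lower, since that scaling shifts all log2 fold changes by -0.0913 in F2 and -0.182 in F3. Without F3 normoxia replicate 1 they were 744 and 1007, and without replicate 2 they were 471 and 488. Such a count can only stay or rise when a library is left out.

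The gene of smallest p over both generations was test-1, which encodes a protein named for its similarity to testican, a secreted proteoglycan. It lies on chromosome IV, 2136951 to 2146467, plus strand, in the WBcel235 annotation of Ensembl. Its levels were 0.0762 and 1.86 CPM in F2 normoxia, 18.1 and 11.5 in F2 hypoxia, 0.984 and 0.171 in F3 normoxia, and 59.0 and 41.96 in F3 hypoxia. The estimated counts behind them were 1 and 19, 197 and 141, 15 and 3, and 753 and 529. All 4 normoxia libraries were nearly without the transcript and all 4 hypoxia libraries held it. The log2 fold change was 5.27 ± 0.86 (SE) over both generations, and its p in edgeR was 0.000228, or 1 after adjustment. It ranged from 4.68 to 6.62 over the alternatives tried. DESeq2 gave an adjusted p of 0.00371, and the edgeR fit of 30 libraries gave 1.7e-05, so its call depends on how the spread is estimated.

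On the scale common to 30 libraries test-1 stood at 23.9 and 22.6 CPM in P0 hrde-1 normoxia and 24.6 and 18.2 in P0 hrde-1 hypoxia. In F1 it was at 2.48 and 0.109 in normoxia against 20.5 and 12.15 in hypoxia. From F1 to F3, then, all 6 hrde-1 normoxia libraries lay at or below 2.48 CPM, and all 6 hrde-1 hypoxia libraries lay at or above 12.15. The 14 WT libraries used, of all generations and both labels, held 21.4 to 80.2 CPM. In F3 WT the level was 65.9 and 50.6 in normoxia and 61.0 and 80.2 in hypoxia, and the F3 effect in hrde-1 minus that in WT was 6.16 (log2). That difference had an unadjusted p of 3.07e-05 and its adjusted p (edgeR) was 0.11, or 0.0023 where no filter on low counts was used.

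**Figure D2:**
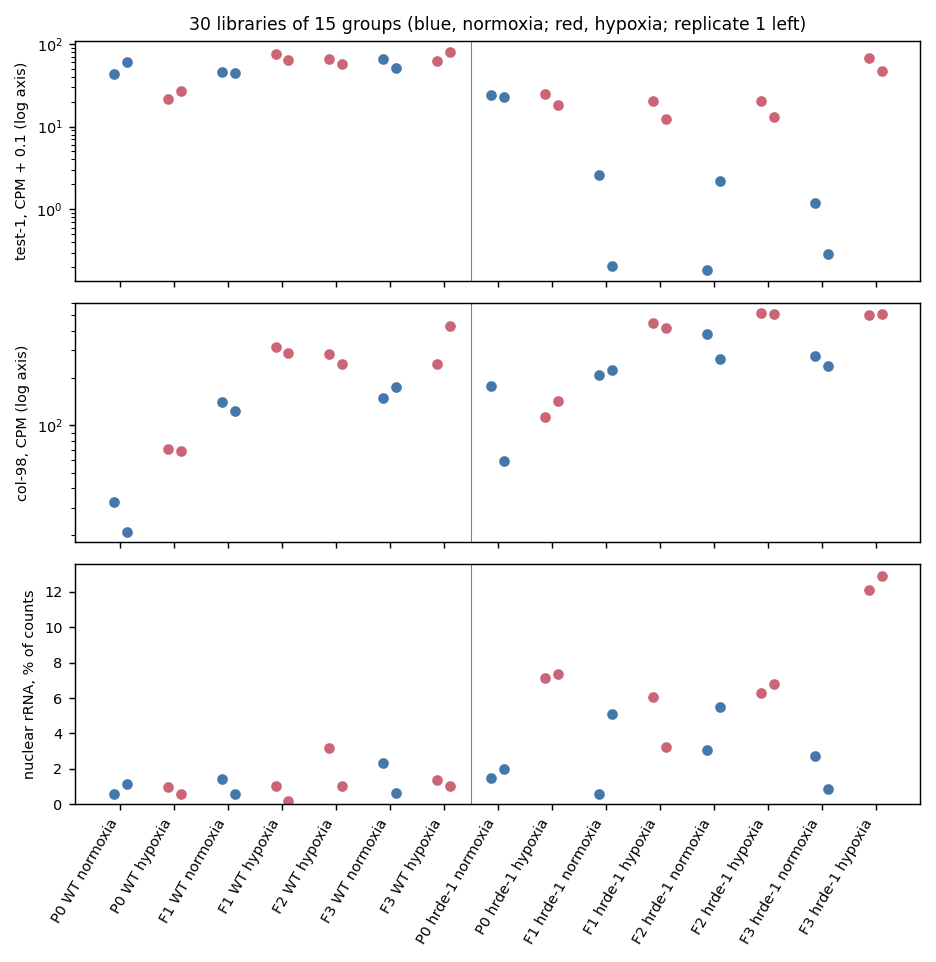
Levels of test-1 (CPM + 0.1, log axis) and col-98 (CPM, log axis) and the nuclear rRNA share of all counts (%), 1 dot per library of 15 groups, blue for normoxia and red for hypoxia, WT left of the line and hrde-1 right of it. The 6 hrde-1 normoxia libraries of F1 to F3 lie at or below 2.48 CPM of test-1, and F3 hrde-1 hypoxia holds the highest rRNA shares, 12.11% and 12.91%.

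Other genes separated in both generations with smaller effects. The metallothionein gene mtl-1, whose product binds metals and whose transcript is a target of the transcription factor DAF-16, stood at 1.29 and 1.77 CPM in F2 normoxia, 0.368 and 0.325 in F2 hypoxia, 1.64 and 1.59 in F3 normoxia, and 0.314 and 0.397 in F3 hypoxia. Its log2 fold change was -2.14 ± 0.39 (SE), nearly the same in F2 (-2.11) and F3 (-2.16), with an unadjusted p of 0.000495. In F3 WT it was at 10.9 and 12.08 CPM in normoxia against 2.33 and 0.441 in hypoxia. The gene smd-1, for S-adenosylmethionine decarboxylase of polyamine synthesis, was at 385 and 359 CPM in F2 normoxia, 513 and 528 in F2 hypoxia, 398 and 406 in F3 normoxia, and 476 and 498 in F3 hypoxia, a log2 fold change of 0.38 ± 0.09. The thymosin-like gene tth-1 was at 16.8 and 26.2, 13.2 and 12.35, 19.5 and 21.9, and 10.1 and 10.8 CPM in the same order, a log2 fold change of -0.87 ± 0.19. In all 3 genes the groups did not overlap in either generation.

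**Figure D3:**
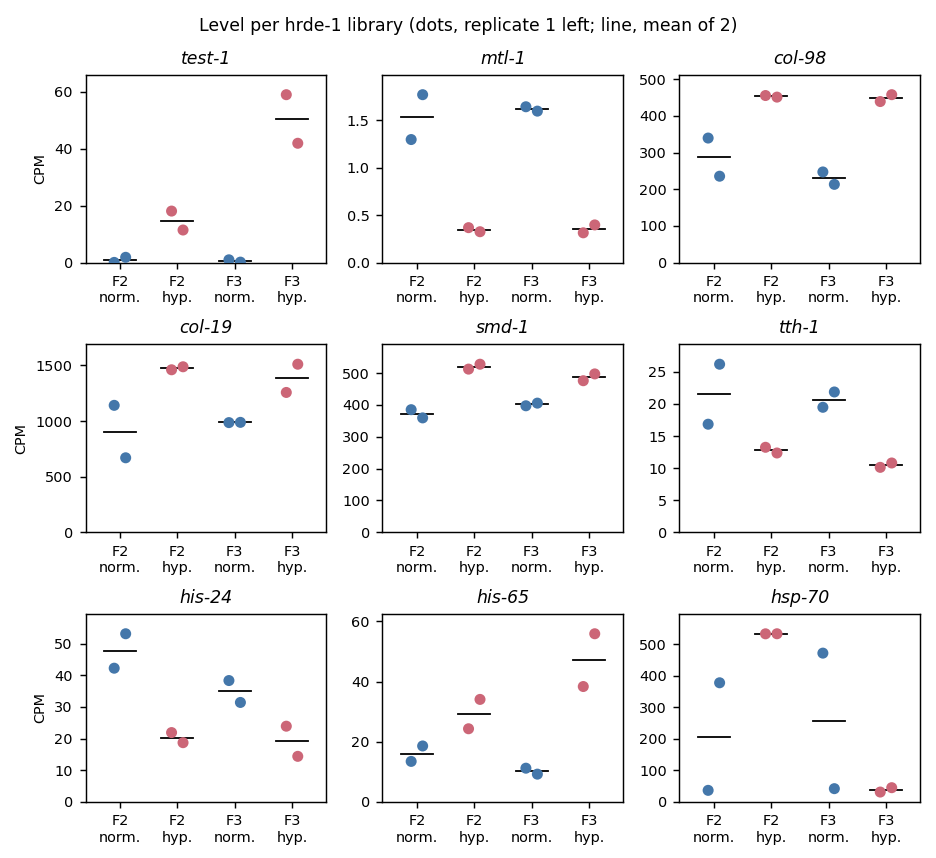
CPM of 9 genes in F2 and F3 hrde-1 libraries, 1 dot per library (replicate 1 left, blue normoxia, red hypoxia) with the mean of 2 as a line. For test-1, mtl-1, col-98, col-19, smd-1, tth-1, his-24 and his-65 the groups do not overlap in either generation, and hsp-70 shows the split between normoxia replicates (36 and 377 CPM in F2, 472 and 41.3 in F3).

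A pair of neighbouring near-identical genes, F45D11.15 and F45D11.16, followed another pattern. They received the same values in every library, so their reads cannot be told apart. They were at 0 in all 4 F2 libraries and in both F3 hypoxia libraries, and at 13.2 and 27.8 CPM in F3 normoxia. With 690 estimated counts against 0, the level in F3 hypoxia was at least 178-fold lower than in F3 normoxia (floor of 3 counts over the group). Elsewhere they were present in only some libraries: 5.24 and 34.7 CPM in P0 hrde-1 normoxia, 9.21 and 0 in F1 hrde-1 normoxia, 0 and 8.18 in F3 WT normoxia, and 0 and 13.1 in F2 WT hypoxia.

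Collagens build the cuticle, are secreted by the hypodermis, and fall into sets made at different stages. None of 140 tested passed edgeR's test, and DESeq2 called 2, col-98 and col-42, beside 8 of all 13718 genes. In edgeR 18 had an unadjusted p under 0.05 with a higher level in hypoxia and 2 with a lower level, against 0.758% and 1.06% of all genes tested. In 19 (13.6%) the hypoxia libraries lay above the normoxia libraries in both generations, against 1.37% of all genes tested, and in 3 (col-74, col-116 and dpy-14) they lay below. The 19 were abundant, with a median of 801 CPM, and their effects were small and alike: a median log2 fold change of 0.586, from 0.249 to 0.888. The count was 18 with DESeq2's size factors and 15 with library totals, where 1.42% and 0.481% of all genes were higher. Without F3 normoxia replicate 1 it was 20 (14.3%, against 5.42% of all genes) and without replicate 2 it was 19 (13.6%, against 3.43%). The margin over all genes was smaller there. Leaving out a library can only keep or raise such a count, so these settings do not check the 19.

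The one of smallest p was col-98, at 340 and 236 CPM in F2 normoxia, 455 and 451 in F2 hypoxia, 247 and 213 in F3 normoxia, and 439 and 458 in F3 hypoxia. Its log2 fold change was 0.81 ± 0.14 (SE), whose adjusted p was 1 in edgeR and 0.00371 in DESeq2. The adult-stage collagen col-19 was at 1141 and 669, 1461 and 1488, 986 and 988, and 1257 and 1511 CPM in the same order. The gene col-124 reached 3456 and 3412 CPM in F2 hypoxia and 3218 and 3785 in F3 hypoxia, against 2655 and 1403 in F2 normoxia and 2278 and 2381 in F3 normoxia. In each, hypoxia stood above normoxia in both generations.

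The other 118 collagens behaved differently. Their median log2 fold change was -0.895, and 89 of them differed by over 4-fold between the F3 normoxia replicates, against 0 of the 19. The median replicate difference was 4.08 against -0.0143 (log2 of CPM + 1). A gene can only count as free of overlap if its normoxia replicates stay on one side of the hypoxia libraries, so a small replicate difference is in part built into the 19. Over all 140 the median effect was -1.49 in F2 and 0.182 in F3.

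**Figure D4:**
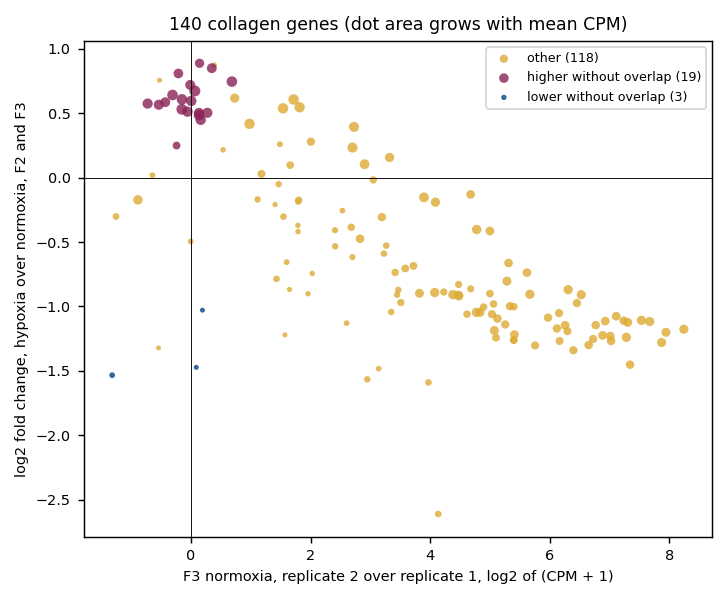
Each dot is 1 of 140 collagen genes: log2 difference between the F3 normoxia replicates (x axis) against log2 fold change of hypoxia over normoxia in F2 and F3 (y axis), area growing with mean CPM. The 19 genes higher without overlap cluster at a replicate difference near 0 and a fold change of 0.249 to 0.888, while 89 of the other 118 lie beyond a 4-fold replicate difference, and their median fold change is -0.895.

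These genes were followed into the other groups of the series. Of the 188 genes higher in F2 and F3 hypoxia, 100 (53.2%) were also higher without overlap in F1 hrde-1, where 38% of all genes tested were, and 18 were lower. Of the 252 lower genes 127 (50.4%) were also lower there, against 33.5%, and 27 were higher. In P0 hrde-1, 73 of the higher genes (38.8%, against 25.6% of all genes tested) and 115 of the lower (45.6%, against 22.2%) separated the same way, with 18 and 20 the opposite way. F1 has its own normoxia libraries, so these comparisons share no sample. From F1 to F3 of hrde-1 this makes 0.729% of all genes tested higher and 0.926% lower, and with P0 added 35 (0.255%) and 52 (0.379%). In WT the shares of the higher genes lay near those of all genes. They were 77 in P0 (41%, against 39%), 69 in F1 (36.7%, against 32.5%) and 71 in F3 (37.8%, against 31.6%), with 72, 53 and 54 the opposite way. Of the lower genes, 173 were also lower in P0 WT (68.7%, against 40.8%), 153 in F1 WT (60.7%, against 32.3%) and 122 in F3 WT (48.4%, against 37.8%), with 42, 28 and 39 the opposite way. Over P0, F1, F2 and F3 of hrde-1 and P0, F1 and F3 of WT together, 14 genes were higher in every comparison (0.102%) and 22 lower (0.16%). With library totals these counts were 5 and 98, and the counts from F1 to F3 of hrde-1 were 38 and 488 in place of 100 and 127.

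Of the 14 genes 9 were collagens: col-8, col-19, col-20, col-80, col-119, col-124, col-140, col-178 and col-179. Named after their values were seen, they include col-19 at 471 and 564 CPM in F1 WT normoxia against 1044 and 896 in F1 WT hypoxia, and at 554 and 573 in F1 hrde-1 normoxia against 1246 and 1179 in F1 hrde-1 hypoxia. The gene smd-1 was among the 14 as well. With library totals the count of 5 was made up of collagens alone, so it did not include smd-1. The 22 lower genes included mtl-1, tth-1, the collagens col-74 and dpy-14, the linker histone genes his-24 and hil-3, the molting regulator nhr-25, and epg-2, which acts in autophagy of P granule proteins in embryos. Levels in P0 WT normoxia were far above those of F2 hrde-1 for several of the 22, among them mtl-1, his-24, epg-2 and dpy-14. In P0 WT normoxia mtl-1 stood at 147 and 203 CPM, against 1.46 and 1.99 in F2 hrde-1 normoxia. For his-24 the levels were 523 and 440 against 47.8 and 59.9. The P0 hrde-1 normoxia replicates stood apart in both genes, at 2.62 and 26.8 CPM for mtl-1 and 70.5 and 638.5 for his-24. The gene epg-2 stood at 17.3 and 22.7 CPM in F2 hrde-1 normoxia and 11.23 and 11.9 in F2 hrde-1 hypoxia, against 184 and 232 in P0 WT normoxia. The gene dpy-14 was at 2.58 and 3.98, 1.35 and 1.11, and 446 and 828 CPM in those groups.

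Histones package DNA, and most of their mRNAs in animals lack a poly(A) tail. Of 53 tested none passed in edgeR's test. DESeq2 called 4, beside 8 of all 13718 genes: his-62, his-64 and his-65 higher and his-24 lower. In edgeR 10 had an unadjusted p under 0.05 with a higher level in hypoxia and 2 with a lower level, against 0.758% and 1.06% of all genes tested. Without overlap 6 were higher (11.3%, against 1.37% of all genes tested) and 2 lower (against 1.84%). From F1 to F3 of hrde-1, 1 stayed higher (1.89%, against 0.729% of all genes tested) and 2 lower (against 0.926%). Among the higher ones were his-65, at 13.4 and 18.6 CPM in F2 normoxia, 24.3 and 34.1 in F2 hypoxia, about 11 and 9.17 in F3 normoxia, and 38.3 and 55.9 in F3 hypoxia, and his-62, at 5.18 and 7.36, 13 and 11.9, 4.99 and 3.47, and 12 and 16.50 CPM. The log2 fold changes were 1.54 ± 0.32 for his-65 and 1.36 ± 0.26 for his-62. For his-65 the effect was 0.87 in F2 and 2.21 in F3. The adjusted p of that difference was 0.995 in edgeR. Copies of a histone type are near-identical, so reads may be split among them. Some carried the same values, such as his-46 and his-56 or his-12 and his-43, so the 53 are not all separate measurements. The gene his-45 was at 0 in both F3 normoxia libraries and at 11.8 and 17.7 CPM in F3 hypoxia, at least 161-fold higher (floor of 3 counts over the group).

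The linker histone gene his-24 was lower instead, at 42.3 and 53.2 CPM in F2 normoxia, 21.9 and 18.7 in F2 hypoxia, 38.4 and 31.4 in F3 normoxia, and 23.9 and 14.4 in F3 hypoxia. Its log2 fold change was -1.05 ± 0.20 (SE), whose adjusted p was 1 in edgeR and 0.00823 in DESeq2. In hil-3, another linker histone gene, it was -0.97 ± 0.29. Like the 6 histone genes above, the share of counts from nuclear ribosomal RNA genes was higher in hypoxia without overlap in both generations. It was 3.06% and 5.5% in F2 normoxia, 6.29% and 6.8% in F2 hypoxia, 2.73% and 0.848% in F3 normoxia, and 12.11% and 12.91% in F3 hypoxia. In P0 hrde-1 it was 1.48% and 2.02% in normoxia and 7.13% and 7.35% in hypoxia. In F1 hrde-1 the shares overlapped, at 0.559% and 5.07% in normoxia and 6.04% and 3.22% in hypoxia, and so did his-65, at 5.93 and 31.1 CPM in normoxia and 24.2 and 14.8 in hypoxia. WT libraries held at most 3.19%. Ribosomal RNA carries no poly(A) tail. With ribosomal RNA genes left out, 6 of the 53 histone genes were again higher without overlap in both generations (11.3%, against 1.34% of all genes tested). That setting only takes out their counts, and a link between the ribosomal RNA share and the histone result was not tested. Histone genes took 0.0542% to 0.0703% of counts in the 8 libraries. Summed over the 53 tested, they overlapped in F3, at 1270 and 1030 CPM in normoxia and 1220 and 1250 in hypoxia.

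The HIF-1 pathway was slightly lower by its median. Of 16 genes tested none passed in edgeR's test or DESeq2's, 13 had a negative log2 fold change in F2 and 9 in F3, and 7 in both, where all genes tested gave 51.6%, 52.2% and 25.6%. In edgeR 0 had an unadjusted p under 0.05 with a higher level and 1 (swan-1) with a lower level. Without overlap in both generations 0 were higher, 1 was lower and 2 ran opposite ways, where all genes tested gave 1.37%, 1.84% and 3.7%. The list medians were -0.175 in F2 and -0.0943 in F3, beside -0.0103 and -0.0248 over all genes tested. The transcript of hif-1 itself stood at 177, 143, 138 and 144 CPM in F2 and 138, 208, 198 and 191 in F3 (normoxia first), a log2 fold change of -0.01 ± 0.16 whose sign changed with the library left out. The hydroxylase gene egl-9, which is itself induced by HIF-1, was lower in both hypoxia groups by a small step: 28.03 and 29.1 against 27.2 and 26.3 CPM in F2, and 24.9 and 28.5 against 23.5 and 20.3 in F3. The nuclear receptor gene nhr-57, a HIF-1 target often used as its readout, stood at 2.21, 2.06, 2.58, 3.9, 2.82, 4.16, 1.96 and 1.98 CPM in the order F2 normoxia, F2 hypoxia, F3 normoxia, F3 hypoxia, so that hypoxia lay above normoxia in F2 and below it in F3 without overlap. Glycolysis genes (24 tested), hydrogen sulfide and cysteine genes (21), lipid metabolism genes (36) and oxidative phosphorylation genes (44) held no gene with an unadjusted p under 0.05.

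Germline and small RNA genes also gave few separations in the same direction in F2 and F3. Of 43 small RNA pathway genes and 31 meiosis and germline genes none had an unadjusted p under 0.05, and their medians were -0.102 and -0.0849 over both generations. In opposite directions 4 of the 43 and 0 of the 31 separated without overlap, where all genes tested gave 3.7%. Single members without overlap are to be read beside the 1.37% higher and 1.84% lower of all genes tested. Among 9 reported nuclear RNAi targets, 1, the pseudogene W04B5.1, was higher without overlap, at 7.24 and 6.67 against 9.2 and 10.56 CPM in F2 and 6.56 and 5.86 against 8.78 and 8.72 in F3 (log2 fold change 0.50 ± 0.18). In the list of 15 genes for H3K9 methylation and heterochromatin, hpl-1, a homolog of heterochromatin protein HP1, was lower without overlap, by -0.57 ± 0.27. Of 21 autophagy genes 2 were lower without overlap: epg-2 (-0.77 ± 0.19) and epg-5 (-0.53 ± 0.18). In 21 early embryonic genes the median was -0.621, with 2 of unadjusted p under 0.05 in the lower direction and 1 without overlap. Their summed levels overlapped, at 74.9 and 54 CPM in F2 normoxia, 52.2 and 60.7 in F2 hypoxia, 54.2 and 69.7 in F3 normoxia, and 63.9 and 69.2 in F3 hypoxia. Of 6 vitellogenins, the yolk proteins, vit-1 was higher in F3 hypoxia (14590 and 10600 CPM against 7675 and 7081) and overlapped in F2.

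With all 8 libraries in use, the effects in F2 and F3 showed little agreement across the transcriptome. The log2 fold changes of F2 and F3 correlated at r = 0.0437 across 13718 genes, which are not independent of each other, and at -0.057 across 7103 genes with a mean of at least 10 CPM. The sign was the same in 47.4% of all genes tested. Which way the generations leaned depended on the F3 normoxia library. Without replicate 1, genes free of overlap numbered 744 higher and 1007 lower in both generations, against 838 in opposite directions. Without replicate 2 they numbered 471 and 488, against 2213. Whether the generations agree can therefore not be told from these values. Within F2, 0 genes passed (173 at an unadjusted p under 0.05, 1.26%, and 0 in DESeq2). Within F3, 0 genes passed (229, 1.67%), and DESeq2 called 8, all higher: test-1, his-58, his-64, his-65 and 4 ribosomal RNA genes. Of these, rrn-1.1 and rrn-1.2 had the same log2 fold change (3.04), so the 8 may not be separate measurements. Heat shock genes had a median of 0.376 in F2 and -0.392 in F3, beside normoxia replicate differences of 0.6 in F2 and -0.885 in F3.

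**Figure D5:**
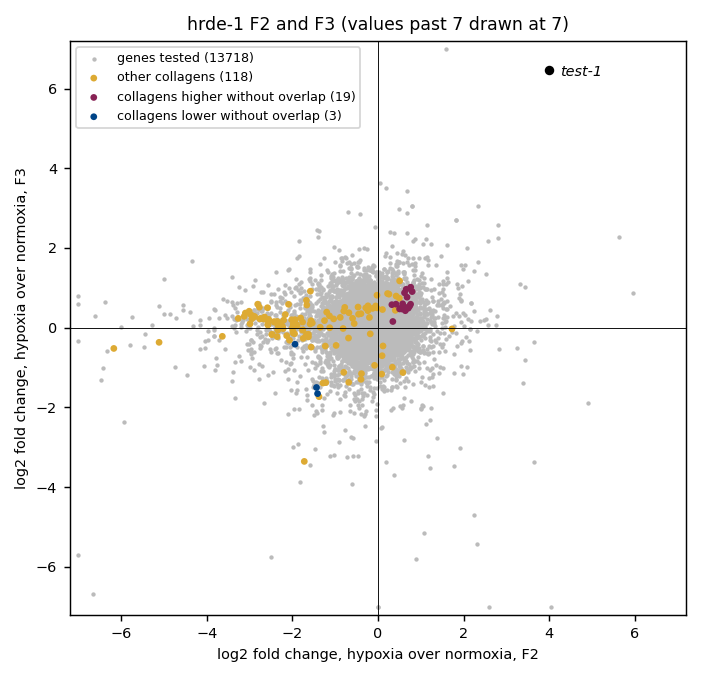
Log2 fold change of hypoxia over normoxia in F2 (x axis) and F3 (y axis) for 13718 genes, with 140 collagens coloured by class and test-1 in black. The cloud shows no common diagonal (r = 0.0437), the 19 collagens higher without overlap sit at small positive values on both axes, and test-1 lies apart at 3.99 and 6.46.

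The difference between the F3 and the F2 effect passed for 0 of 13718 genes in edgeR's quasi-likelihood test and for 0 in DESeq2, with 188 genes at an unadjusted p under 0.05 (1.37%). Of the 5 genes of smallest p, tmem-135 and kin-9 separated in opposite directions in the 2 generations. The gene tmem-135, for a transmembrane protein, stood at 8.61 and 7.46 CPM in F2 normoxia, 4.32 and 3.98 in F2 hypoxia, 3.48 and 4.33 in F3 normoxia, and 7.13 and 7.14 in F3 hypoxia. The kinase gene kin-9 was at 0.914 and 0.785, 1.75 and 1.71, 1.44 and 2.11, and 0.392 and 0.476 CPM. The difference was 1.82 (log2) with an unadjusted p of 0.00396 for tmem-135 and -3.02 with 0.0051 for kin-9.

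Set against F1, the first generation after P0, the mean effect of F2 and F3 differed for 0 of 13763 genes after adjustment, the smallest adjusted p in edgeR's quasi-likelihood test being 0.299. At an unadjusted p under 0.05 there were 1630 (11.8%). The count depended on the F3 normoxia replicates: 1114 genes passed without replicate 1 and 1 passed without replicate 2, while DESeq2 called 334. Among the genes of smallest p were the ule genes, whose products are found in the uterine lumen. On the scale common to 30 libraries ule-2 stood at 10.3 and 18.2 CPM in F1 hrde-1 normoxia and 1.63 and 2.64 in F1 hrde-1 hypoxia, but between 14.6 and 19.5 in all 8 libraries of F2 and F3. The difference was 2.77 (log2) for ule-2, with an unadjusted p of 5.44e-05, 1.76 for ule-1 and 1.54 for ule-4. Collagens such as dpy-13 had differences of -7.38, with a replicate split in F3 normoxia of 1.31 and 471 CPM.

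Set against F3 WT, the F3 effect in hrde-1 differed for 0 of 14331 genes after adjustment in edgeR's quasi-likelihood test, with 1653 at an unadjusted p under 0.05 (11.5%). DESeq2 called 172, and leaving out F3 hrde-1 normoxia replicate 1 or 2 gave 48 or 4862. Beside test-1, the genes of smallest p were ones in which F3 WT normoxia stood apart and all 4 F3 hrde-1 libraries lay nearer to F3 WT hypoxia. The acyl-CoA synthetase gene acs-11 was at 352 and 439 CPM in F3 WT normoxia and 85.1 and 69.5 in F3 WT hypoxia, and at 54.3, 62.7, 63.1 and 64.95 in the F3 hrde-1 libraries. The immune effector gene T24B8.5, a target of the p38 MAP kinase PMK-1, was at 2.1 and 1.43 CPM in F3 WT normoxia and 34.3 and 25.14 in F3 WT hypoxia, and at 26.5, 34.5, 34.4 and 36.4 in hrde-1. The yolk gene vit-1, named from its list, was at 1440 and 870 CPM in F3 WT normoxia and 11210 and 12700 in F3 WT hypoxia, and at 8533, 7881, 16680 and 11860 in hrde-1. The differences between the strains' effects were 2.42, -3.93 and -2.64 (log2) for acs-11, T24B8.5 and vit-1.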

How the data were processed

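Whole worms gave 32 libraries, of which 8 entered the main tests. The authors deposited 1 table of estimated counts per gene (46904 genes), not normalized, in which 97.91% to 98.31% of the values of the 8 libraries are whole. Tools listed in the submitters' processing notes are RSEM, featureCounts, Bowtie2, edgeR and cutadapt 2.5. What each was used for, and on which genome build, is not given in the sources used here. Of the IDs 46817 (99.8%) matched the WBcel235 annotation of Ensembl.

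The tests had been planned for raw counts, and the estimated counts were rounded. Genes passing filterByExpr were tested with edgeR 4.0.16 (glmQLFit and glmQLFTest, TMM) in R 4.3.3, adjusted by Benjamini-Hochberg over all genes tested, at a threshold of 0.05. The fit over both generations had generation as a term. The single generations and the differences came from fits with a mean per group, and limma 3.58.1 was loaded with edgeR. Each log2 fold change carries a standard error, computed as its size over the square root of F. Alternatives were DESeq2 1.42.0, its size factors, other filters, a replicate block, a fit of 30 libraries and each library left out. CPM values come from TMM over the 8 libraries. Values of other groups come from TMM over 30 libraries. The 2 columns of F2 WT normoxia were left out of all fits, since many of their values are multiples of 1/3, as averages of 3 libraries would be. The edgeR tests, but not the counts of genes free of overlap or the list summaries, were tried on simulated data with known changes. The simulated replicates lacked the split seen between the real normoxia replicates, so that trial does not show the tests' power in these data.

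The comparison, the 38 gene lists and the tests were chosen with earlier results of these data known. Of the lists' named entries 11 matched no gene. Genes named are hrde-1 and hif-1, the 5 of smallest p where fewer than 4 were called, the 2 list members of smallest p, and the genes with the largest F3 normoxia replicate ratios. Genes free of overlap and C38D9.2, col-19, col-124, egl-9, nhr-57 and dpy-7 were named after their values were seen.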

Additional observations from a re-analysis of the deposited data

How the results depend on the processing

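The 0 genes called over F2 and F3 together became 8 (6 higher, 2 lower) with DESeq2's Wald test, 2 (test-1 higher, arrd-13 lower) in the fit of 30 libraries and 3 with a term for the mean level of the col genes, chosen after seeing the data (test-1, F45D11.15 and F45D11.16). For F3 alone they became 8 and 2 with the first 2 of these. For F2 alone and for F3 minus F2 the count was 0 in every alternative run. For the difference from F1 it became 334 with DESeq2 and 286 with 30 libraries, and 0 to 1114 with 1 library left out. For F3 hrde-1 against F3 WT it became 172 with DESeq2, 41 with no filter and 102 with 30 libraries, and 0 to 4862 with 1 library left out, 1 of these without F3 WT hypoxia replicate 1. Where 1 library is left its group is assumed to vary like the others. Without F3 hrde-1 normoxia replicate 2, counts at an unadjusted p under 0.05 rose for F2 alone, F3 alone and F3 minus F2. The replicate block (replicate number within generation, or within strain) gave 0 calls in all 6 tests. Deviations of same-numbered libraries correlated at -0.16 in F2 and 0.498 in F3. The main tests did not take the numbers as pairs, and whether the F3 libraries were paired cannot be told from these values.

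Genes free of overlap, whose alternatives were chosen after seeing the data, numbered 66 higher and 863 lower with library totals; without F3 normoxia replicate 1 they numbered 744 higher, 1007 lower and 838 opposite, and without replicate 2 they numbered 471, 488 and 2213. From F1 to F3 of hrde-1 library totals gave 38 higher and 488 lower, and over all 7 comparisons 5 and 98, with 5 collagens in place of 9. Leaving out an F3 normoxia library can only keep or raise a count of genes free of overlap. The causes were not tested.

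Of 1335 values of 80 named genes under the alternatives, 1317 kept their sign and their side of the threshold, and 9 newly passed. The sign changed in 9: hif-1 to 0.0102 with the replicate block, 0.00673 with 30 libraries and, with 1 library left out, a range of -0.146 to 0.0938; nduo-2, a range of -4.39 to 0.131; and hrde-1, a range of -0.0189 to 0.133. Depth limits genes such as mtl-1, at under 2 CPM.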

Other observations

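A pair of genes outside the lists, sepa-1 and vet-1, was picked after their values were seen and stands for no group. The gene sepa-1, for a receptor in the autophagy of P granule components, stood at 4.65 and 5.79 CPM in F2 normoxia, 3.77 and 2.36 in F2 hypoxia, 6.23 and 2.85 in F3 normoxia, and 1.88 and 0.872 in F3 hypoxia, a log2 fold change of -1.23 ± 0.41 (SE). The gene vet-1, named as a very early transcript, was at 3.2 and 3.93, 1.93 and 2.19, 3.87 and 1.54, and 0.941 and 0.793 CPM in the same order (-1.19 ± 0.39). Both were also lower without overlap in P0 and F1 hrde-1 hypoxia, as were 52 genes in all (0.379% of genes tested).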
